A study of Mus musculus with 7 samples.

Results

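The voltage-gated sodium channel complex is described here by 8 genes in the left ventricle of mouse embryos labelled Tbx5 mutant or control: the pore-forming subunits Scn10a and Scn4a, the auxiliary beta subunits Scn3b and Scn4b, and the FGF homologous factors Fgf11, Fgf12, Fgf13 and Fgf14. They were taken by name and are 8 of the 23337 gene symbols in the count table. Poly(A) RNA was sequenced from microdissected left ventricles at embryonic day 12.5, in 2 embryos labelled mutant, with the Tbx5 genotype Tbx5flox/flox, and in 5 controls that were Tbx5+/+. All 7 carried the allele Gt(ROSA)26Sortm1(cre/ERT2)Tyj, whose recombinase becomes active in most cell types, not in heart muscle alone, once tamoxifen is present. The mother of each had received tamoxifen at embryonic day 11.5. The comparison asks which left ventricular transcripts depend on Tbx5, a T-box transcription factor gene of the developing heart. Litter, sex and batch are not in the labels, so p-values measure only the spread between these samples.

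A voltage-gated sodium channel is built from one large alpha subunit, which forms the pore, and smaller beta subunits, which cross the membrane a single time and tune gating and placement of the pore. The channel carries the inward current that starts the action potential, and in heart muscle it sets how fast the impulse is conducted. FGF homologous factors resemble secreted fibroblast growth factors in sequence but lack a signal for secretion; they stay in the cell, bind the tail of the alpha subunit and shift its inactivation. Their genes use several first exons, so that each gives proteins with different starts.

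Library totals were 20268208 and 22680280 counts in the libraries labelled mutant and 20385656 to 24440806 in the controls. Tbx5 itself was at 93.8 and 114 CPM (counts per 1000000, scaled by TMM factors) in the libraries labelled mutant and at 64.2 to 98.3 CPM in the controls, with a log2 fold change of 0.43 and an adjusted p of 0.181 in edgeR. Reads of exons that a deletion leaves in place enter this count, so it does not check the deletion, and the genotypes rest on the labels. A sum was taken over 10 ventricular cardiomyocyte markers, among them Myh7, Actc1 and Myl2. It was 41007 and 44130 CPM in the libraries labelled mutant and 36828 to 42701 CPM in the controls. Markers within the sum moved in both directions. Myh7 averaged 13253 CPM in the libraries labelled mutant and 8907 CPM in the controls, and Myl2 5993 and 9009 CPM. Of the 10, 8 had log2 fold changes above 0 and 2 below. Xist, which coats an inactive X chromosome, was at 380 and 509 CPM in the libraries labelled mutant, at 0.689 and 1.09 CPM in control replicates 1 and 3, and at 311 to 477 CPM in the other controls.

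Of the 8 genes, Fgf12 alone was called at a Benjamini-Hochberg adjusted p under 0.05 (quasi-likelihood test, edgeR), and it fell. All 8 had enough counts to be tested, Scn4a and Scn4b only through controls where they were high. Fgf12, with 12 and 9 counts in the libraries labelled mutant, also had enough only through the controls. The 1 of 8 called stands against 1.36% of the 14691 genes tested, of which 132 (0.899%) were lower and 68 (0.463%) higher. Both libraries labelled mutant lay below every control for Fgf12 and Scn10a and above every control for Scn3b. Over all genes tested the share with both libraries labelled mutant on the same side of all controls was 20.2%, with 10.4% below all controls and 9.73% above all of them. The median log2 fold change was -0.48 over the 8 genes and -0.0080 over all genes tested, with 3 positive and 5 negative values among the 8.

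**Figure D1:**
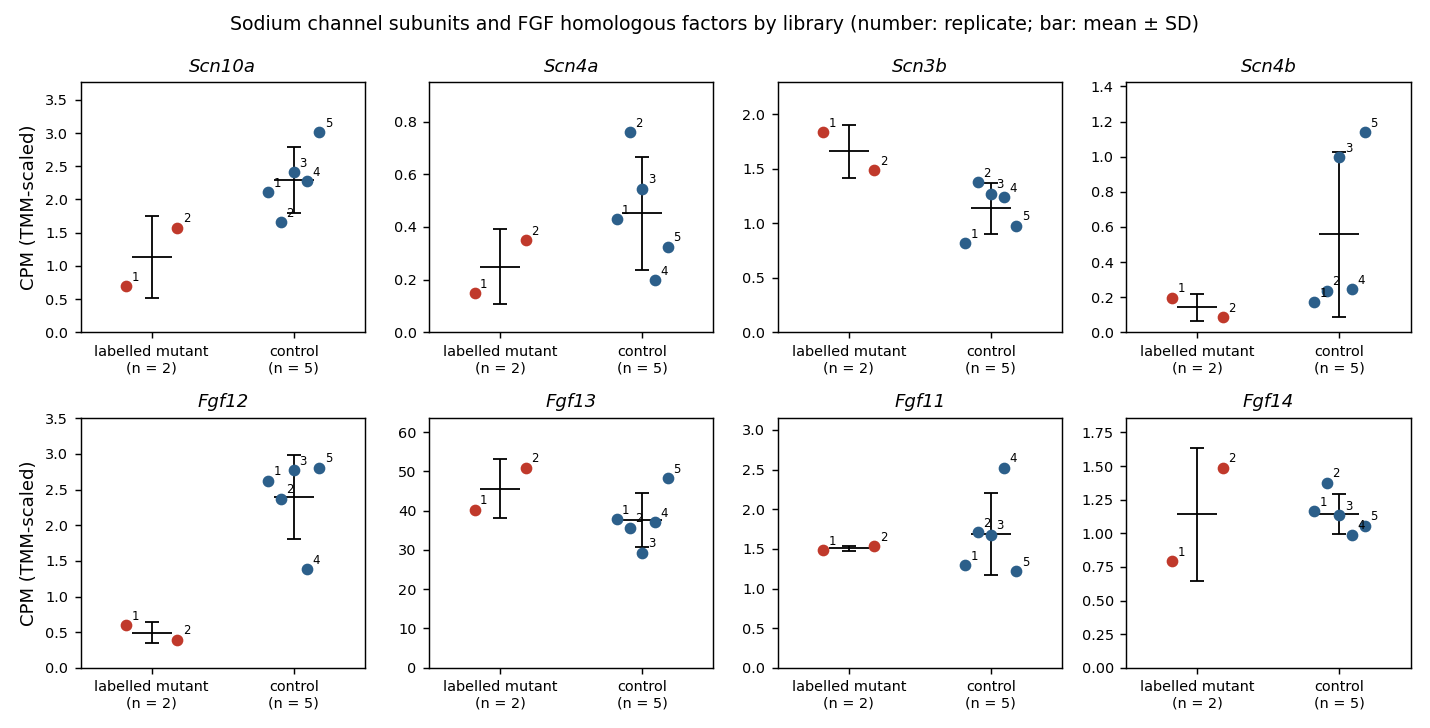
CPM of each of the 8 genes in every library, with the 2 libraries labelled mutant on the left of each panel and the 5 controls on the right; points carry the replicate number, and the bar is the mean ± SD. Fgf12 in the libraries labelled mutant, at 0.594 and 0.394 CPM, lies below the lowest control, at 1.39 CPM.

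Fgf12 encodes a factor that is prominent in human heart and, in humans, is linked to epilepsy and to inherited arrhythmia. The gene lies on chromosome 16 at 28160098 to 28753068 of GRCm38 (the mm10 assembly), on the minus strand, and spans 593.0 kb. It had 12 and 9 counts in the libraries labelled mutant, against 61, 50, 61, 28 and 69 counts in control replicates 1 to 5. In CPM this was 0.594 and 0.394 in the libraries labelled mutant, and 2.62, 2.37, 2.77, 1.39 and 2.81 in the controls. Control replicate 4 was the lowest control, and the other controls lay close together. The means were 0.494 ± 0.142 CPM in the libraries labelled mutant (SD, n = 2) and 2.39 ± 0.588 CPM in the controls (SD, n = 5), so the control mean was 4.84 times that of the libraries labelled mutant. This gave a log2 fold change of -2.28 (SE 0.38, 95% interval -3.12 to -1.44), with an adjusted p of 0.0207 (edgeR quasi-likelihood test). Every control was above both libraries labelled mutant, but the call rested on single libraries. The adjusted p in edgeR was 0.223 without mutant replicate 2, and it was 0.0548 or 0.0545 with control replicate 1 or 2 left out. With Xist as a covariate the adjusted p of Fgf12 was 0.068, by limma-voom it was 0.0543, and without both control replicate 5 and mutant replicate 2 it was 0.17, while the log2 fold change lay between -2.59 and -1.93 in all 18 alternatives.

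Fgf12 was also the 1 member on the authors' deposited table of 668 genes, which gives it a log fold change of -2.28 and a false discovery rate of 7.09e-06. That table names no test, and its values and those above come from the same libraries. All 668 of its genes were among the 14691 tested here, of which 200 were called.

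The bases upstream of the starts of Fgf12 are shown because Fgf12 was the called gene and the comparison concerns a T-box factor. RefSeq (GRCm38.p6) gives 4 starts for Fgf12, and the first pair of sequences are the 250 bases before the first and the second of them, on the minus strand, at chr16:28753244-28753493 and chr16:28564952-28565201. Neither overlaps an exon of the GENCODE annotation.
Fgf12 first start: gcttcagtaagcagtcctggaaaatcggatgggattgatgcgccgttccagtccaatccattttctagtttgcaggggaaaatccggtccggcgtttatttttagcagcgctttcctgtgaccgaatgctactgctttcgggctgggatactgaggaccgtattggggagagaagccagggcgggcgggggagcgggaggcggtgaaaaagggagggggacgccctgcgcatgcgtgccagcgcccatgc
Fgf12 second start: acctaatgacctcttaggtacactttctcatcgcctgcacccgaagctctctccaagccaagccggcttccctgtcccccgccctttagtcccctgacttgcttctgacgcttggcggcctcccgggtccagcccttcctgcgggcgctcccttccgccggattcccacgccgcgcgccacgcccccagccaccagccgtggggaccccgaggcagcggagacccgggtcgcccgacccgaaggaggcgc
The T-box half-site AGGTGT was searched on both strands (ACACCT on the other). It was in neither of these windows and in 1 of the 4 windows of Fgf12, that of the fourth start, at 176 bases before the start. Of the 250 bases of that window, 202 overlap an annotated exon. That match stands in capitals in the next line, within 30 bases of window 28446076 to 28446325 of chromosome 16.
Fgf12 motif: gagctggggaggACACCTtcggcagctttg
Of the 13 windows found for 7 of the 8 genes (Scn3b had no entry), 1 held AGGTGT, against 11.8% of all 32851 windows of the same length. A match is a run of letters, and the count per gene does not tell which start was used. The share of G and C was 58.4% and 69.2% in the 2 windows printed whole, and the median over all windows was 52.4%.

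Fgf13, the factor that predominates in the mouse heart, had the highest level of the 8 genes per kilobase of exon. It lies on the X chromosome at 59062145 to 59568071, on the minus strand, and spans 505.9 kb. It was at 40.2 and 50.9 CPM in the libraries labelled mutant, against 37.8, 35.6, 29.2, 37.1 and 48.2 CPM in control replicates 1 to 5. The groups overlapped, with control replicate 5 above mutant replicate 1. The means were 45.6 ± 7.56 CPM in the libraries labelled mutant (SD, n = 2) and 37.6 ± 6.84 CPM in the controls (SD, n = 5). Its log2 fold change was 0.28 (SE 0.16) and the adjusted p 0.413 (edgeR quasi-likelihood test), and the 95% interval of the fold ran from 0.942 to 1.56. Since the gene is X-linked, its values are set beside Xist. Control replicates 1 and 3, with little Xist, had 37.8 and 29.2 CPM of Fgf13. With Xist as a covariate the log2 fold change was 0.18, and the adjusted p was 0.757 by the same test.

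Fgf14, linked in humans to a hereditary ataxia, had 0.793 and 1.49 CPM in the libraries labelled mutant and 0.990 to 1.38 CPM in the controls. The 2 libraries labelled mutant enclosed all 5 controls, 1 from below and 1 from above. For Fgf14 the log2 fold change was 0.0060 (SE 0.31, 95% interval -0.68 to 0.70), with an adjusted p of 0.994 (edgeR quasi-likelihood test), and its sign changed with single libraries left out. The 5 controls differed by no more than counting noise, with a chi-square per degree of freedom of 0.396. An antisense-strand gene overlaps 220 bases of its exons, and reads of the 2 strands cannot be told apart.

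Fgf11, the smallest gene of the family here at 5.8 kb on chromosome 11, had 1.49 and 1.53 CPM in the libraries labelled mutant. The controls ran from 1.22 to 2.52 CPM, the highest being control replicate 4, and enclosed both. Its log2 fold change was -0.15 (SE 0.32, 95% interval -0.85 to 0.55), with an adjusted p of 0.847 (edgeR quasi-likelihood test), and it was 0.044 without control replicate 4.

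Of the summed CPM of the 4 factors, Fgf12 gave 1.38% and 0.725% in the libraries labelled mutant, against 6.12%, 5.77%, 7.95%, 3.3% and 5.26% in control replicates 1 to 5. The summed CPM itself overlapped, at 43.1 and 54.3 in the libraries labelled mutant and 34.8 to 53.3 in the controls.

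Among the pore-forming subunits, Scn10a, best known from pain-sensing neurons, is of interest for the heart because its gene holds an intronic enhancer bound by T-box factors. It lies on chromosome 9 at 119608456 to 119719322, on the minus strand. It was at 0.694 and 1.57 CPM in the libraries labelled mutant, from 14 and 36 counts, against 2.11, 1.66, 2.41, 2.28 and 3.01 CPM in control replicates 1 to 5, from 49, 35, 53, 46 and 74 counts. Both libraries labelled mutant were below every control, but mutant replicate 2 was close to control replicate 2. The means were 1.13 ± 0.623 CPM in the libraries labelled mutant (SD, n = 2) and 2.29 ± 0.490 CPM in the controls (SD, n = 5). The log2 fold change was -1.0 (SE 0.35, 95% interval -1.78 to -0.22), and the adjusted p of 0.18 (edgeR quasi-likelihood test) did not pass. With mutant replicate 1 left out the log2 fold change was -0.54, and with mutant replicate 2 left out it was -1.71.

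**Figure D2:**
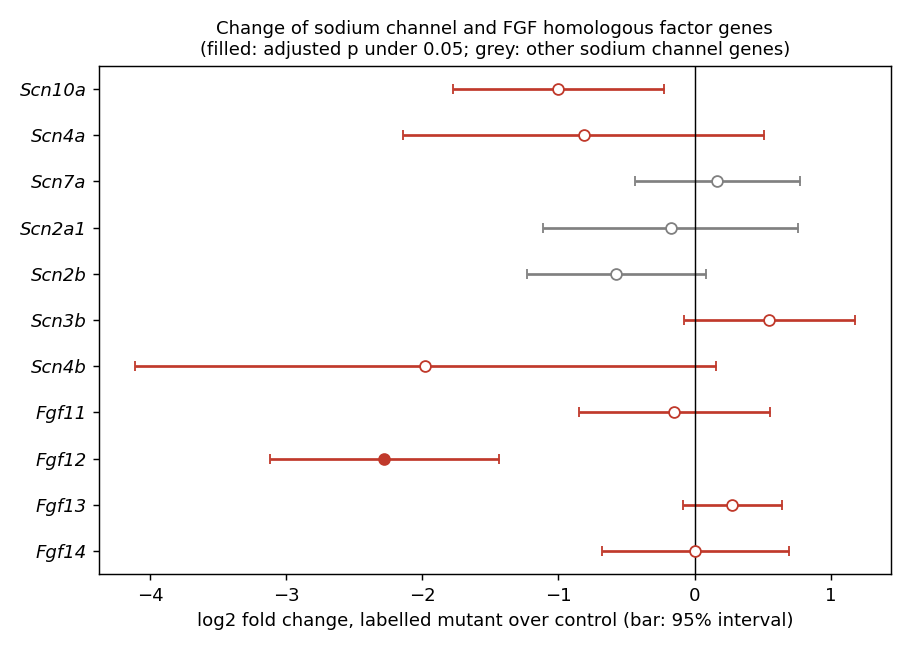
Log2 fold change of the libraries labelled mutant over the controls, with its 95% interval, for the 8 genes (red) and 3 other sodium channel genes (grey); a filled point marks an adjusted p under 0.05. Fgf12 at -2.28 is the one filled point.

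Of the 50-base stretches of annotated Scn10a transcripts, 1.66% also occur in transcripts of another gene, so reads of these stretches cannot be told apart by sequence. Scn11a, a further alpha subunit gene of sensory neurons, beside Scn10a on chromosome 9, had 2 and 1 counts in the libraries labelled mutant and 7, 6, 9, 7 and 4 in control replicates 1 to 5, too few to be tested.

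Scn4a, the alpha subunit of skeletal muscle, was at the limit of this depth. It had 3 and 8 counts in the libraries labelled mutant and 10, 16, 12, 4 and 8 in control replicates 1 to 5. In CPM this was 0.149 and 0.350 in the libraries labelled mutant and 0.198 to 0.759 in the controls, so the groups overlapped. For Scn4a the log2 fold change was -0.81 (SE 0.60, 95% interval -2.14 to 0.51), with an adjusted p of 0.517 (edgeR quasi-likelihood test). It was -0.36 with mutant replicate 1 left out and -1.55 with mutant replicate 2 left out. Scn4a had too few counts to enter the fit without control replicate 2 or 3, where it was highest. Of 15 skeletal muscle markers, 8 were too low to be tested, Myod1, Pax7 and Ryr1 among them, and Myf5 had 0 counts in every library. The summed level of the 15 was 250 and 271 CPM in the libraries labelled mutant and 134 to 286 CPM in the controls, most of it from Ckm, which heart muscle also expresses. Of the 7 tested none was called, with 4 log2 fold changes above 0, 3 below and a median of 0.31, while 1 was called with control replicate 3 left out, by DESeq2 and with the replicate block. The 2 with the highest CPM, Ckm and Actn3, were at log2 fold changes of 0.39 (SE 0.28) and -0.19 (SE 0.26). Myh8 was at 12.4 and 6.56 CPM in the libraries labelled mutant and 1.73 to 5.08 CPM in the controls. It was not called, at a log2 fold change of 1.59 (SE 0.35) and an adjusted p of 0.0573 (edgeR quasi-likelihood test).

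Of the beta subunits, Scn3b, which associates with the pore without a covalent bond, was at 1.83 and 1.49 CPM in the libraries labelled mutant. The controls had 0.818, 1.38, 1.27, 1.24 and 0.976 CPM in replicates 1 to 5, all below both. The means were 1.66 ± 0.244 CPM in the libraries labelled mutant (SD, n = 2) and 1.14 ± 0.231 CPM in the controls (SD, n = 5). The log2 fold change of 0.55 (SE 0.28, 95% interval -0.08 to 1.17) did not pass, with an adjusted p of 0.345 (edgeR quasi-likelihood test), and the controls differed by about as much as counting noise (chi-square per degree of freedom 1.07). The direction was the same in all 18 alternatives, from 0.39 to 0.70.

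Scn4b, a beta subunit held to the pore by a disulphide bond and linked in humans to long QT syndrome, varied more between controls, relative to its mean, than any of the other 7 genes. It had 4 and 2 counts in the libraries labelled mutant and 4, 5, 22, 5 and 28 counts in control replicates 1 to 5. Control replicates 3 and 5, at 0.999 and 1.14 CPM, stood apart from control replicates 1, 2 and 4, at 0.172 to 0.247 CPM, and the libraries labelled mutant had 0.198 and 0.0875 CPM. The groups overlapped, since mutant replicate 1 was above control replicate 1. The control coefficient of variation was 83.9%, against 12.8% to 47.5% for the other 7 genes. For Scn4b the log2 fold change was -1.98 (SE 0.96, 95% interval -4.11 to 0.15), with an adjusted p of 0.319 (edgeR quasi-likelihood test). The gene was tested only because of the controls where it was high: without control replicate 3 or 5 it had too few counts to enter the fit.

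None of the 4 beta subunit genes was called. Scn2b had 1.88 and 1.09 CPM in the libraries labelled mutant and 1.83 to 2.81 CPM in the controls, with a log2 fold change of -0.57 (SE 0.30). With mutant replicate 1 left out Scn2b was at -1.01, and with mutant replicate 2 left out at -0.22. Of all 10 alpha subunit genes, 5 were tested and none was called, with log2 fold changes above 0 for 1 and below 0 for 4. Scn7a, an atypical alpha subunit that senses sodium, had a log2 fold change of 0.16 (SE 0.27). Scn2a1, an alpha subunit of brain, had -0.18 (SE 0.42).

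Per kilobase of exon, which allows levels to be set side by side, Fgf13 was at 11.3 ± 1.88 in the libraries labelled mutant and 9.36 ± 1.70 CPM per kilobase in the controls (SD, n = 2 and n = 5). Scn7a was at 0.707 CPM per kilobase in the libraries labelled mutant and 0.633 in the controls, and Scn2b at 0.320 in the libraries labelled mutant and 0.474 in the controls. The other 7 of the 8 genes were below 0.6 CPM per kilobase on average in the controls: Fgf11 at 0.553, Fgf12 at 0.386, Scn10a at 0.288, Fgf14 at 0.274, Scn3b at 0.208, Scn4b at 0.112 and Scn4a at 0.0641. In that order the control ranges of each gene and the next overlapped, so that the 7 do not form a firm ranking, while Fgf13 lay apart from all of them. In the libraries labelled mutant Fgf12 averaged 0.0796 CPM per kilobase, below Fgf11 at 0.496, Scn3b at 0.304, Fgf14 at 0.273 and Scn10a at 0.142. With the length of the longest transcript in place of the merged exons Fgf12 changed places with Fgf11, at 0.578 against 0.554 in the controls.

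**Figure D3:**
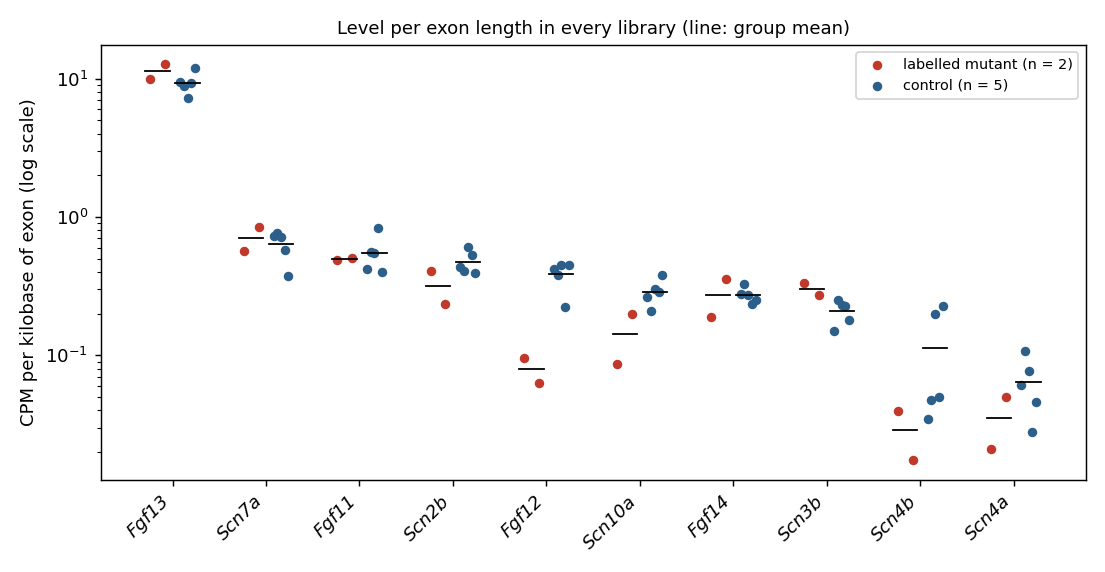
CPM per kilobase of exon on a log axis for the 8 genes and 2 further sodium channel genes, in every library, with the line at the group mean; genes are ordered by control mean. Fgf13 is at the top, with means of 11.3 in the libraries labelled mutant and 9.36 in the controls, and Fgf12 in the libraries labelled mutant, at 0.0796, lies apart from its controls, at 0.386.

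Of 21 genes for proteins that anchor or modify the sodium channel, 1 was called higher and none lower. With mutant replicate 2, control replicate 1 or control replicate 2 left out 0 were called, as with Xist as a covariate, and with mutant replicate 1 or control replicate 5 left out 2. DESeq2 called 8 and the fit with the replicate block 6. Of the list, 16 genes had log2 fold changes above 0 and 5 below, and the median was 0.26. Dsp, the gene of desmoplakin, a desmosomal protein, had 761 ± 256 CPM in the libraries labelled mutant (SD, n = 2) and 453 ± 90.4 CPM in the controls (SD, n = 5). It was not called, at a log2 fold change of 0.75 (SE 0.21) and an adjusted p of 0.105 (edgeR quasi-likelihood test). With mutant replicate 1 left out Dsp was called, at 1.06 with an adjusted p of 0.0498, as it was by DESeq2 (0.0114) and with the replicate block (0.00188), and with mutant replicate 2 left out it was at 0.37.

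Secreted relatives of the FGF homologous factors gave 1 call among 9 tested of 18 listed, with 5 log2 fold changes above 0, 4 below and a median of 0.10. Fgf1, an acidic fibroblast growth factor, rose to 31.7 ± 2.44 CPM in the libraries labelled mutant (SD, n = 2), against 16.7 ± 2.04 CPM in the controls (SD, n = 5), a log2 fold change of 0.93 (SE 0.12) with an adjusted p of 0.00637 (edgeR quasi-likelihood test). The call of Fgf1 was lost without mutant replicate 2 (0.098), also when control replicate 5 was left out with it (0.0671). Fgf9 and Fgf18, both ligands of FGF receptors, were at 0.10 (SE 0.23) and 0.39 (SE 0.28) on the log2 scale. Of 6 tested receptor and coreceptor genes, 1 was called lower and none higher, with 1 log2 fold change above 0, 5 below and a median of -0.42, and DESeq2 called 2. Kl, which encodes the coreceptor klotho, fell to 0.220 ± 0.249 CPM in the libraries labelled mutant, against 2.21 ± 0.952 CPM in the controls (SD, n = 2 and n = 5). Kl had 8 and 1 counts in the libraries labelled mutant and 21 to 76 in the controls, and was tested only through the controls. Its log2 fold change was -3.35 (SE 0.68), with an adjusted p of 0.0464 (edgeR quasi-likelihood test). The call of Kl was lost without mutant replicate 2 or any of control replicates 1, 2, 3 and 5 (0.0504 to 0.317), with Xist as a covariate (0.13), by limma-voom (0.0874) and without control replicate 5 and mutant replicate 2 together (0.255). Its log2 fold change was -5.49 with mutant replicate 1 left out and -2.45 with mutant replicate 2 left out. The 2 receptors highest in CPM, Fgfr1 and Fgfrl1, were at -0.08 (SE 0.09) and -0.13 (SE 0.10) on the log2 scale. Fgfr2 and Fgfr4, with both libraries labelled mutant below every control, were at -0.70 (SE 0.18) and -2.29 (SE 0.61). Neither was called. Fgfr4 had 1 and 5 counts in the libraries labelled mutant and 7 to 21 in the controls, and was tested only through the controls. Fgfr3 was the 1 above 0, at 0.36 (SE 0.16).

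Of 13 tested genes of the conduction system and trabeculae, where sodium channels are abundant, 3 were called lower and none higher: Nppb, a natriuretic peptide gene, at a log2 fold change of -1.22 (SE 0.11), Cacna1g, a T-type calcium channel gene, at -1.41 (SE 0.28), and Gja5, a fast-conducting connexin gene, at -1.77 (SE 0.34). The median of the list was -0.19, with 4 values above 0 and 9 below. The adjusted p of the 3 lay between 0.00208 and 0.0471 (edgeR quasi-likelihood test). Adding Xist as a covariate left 1 gene of the list called, and limma-voom called 2. With control replicate 1 or 2 or either mutant replicate left out 1 was called, and with control replicate 4 left out 6.

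Markers of other cell types are given beside Fgf12, since a bulk sample cannot tell fewer cells of a type from less RNA per cell. Of 8 atrial cardiomyocyte markers, 5 were called lower and none higher, with a median log2 fold change of -1.21 and 7 of the 8 values below 0, among them Gpr22 at -1.12 (SE 0.13), Stard10 at -1.74 (SE 0.27), Sln at -4.21 (SE 0.66) and Nr2f1 at -2.07 (SE 0.38). Control replicate 4, the lowest control for Fgf12, was also the lowest control for 7 of these 8 markers, and for 20.1% of all genes tested. Elsewhere it was lowest for 7 of 14 conduction and trabecular genes, 5 of 8 endothelial and 4 of 7 erythroid markers. Among mesenchymal, ventricular and epicardial markers it was lowest for 1 of 11, 1 of 10 and 0 of 6. Stard10 was at 7.48 CPM in each library labelled mutant, against 14.0 CPM in control replicate 4 and 24.9 to 29.5 CPM in the other controls. With mutant replicate 1 left out 1 atrial marker was called, with mutant replicate 2 left out 0, and with control replicate 1 or 2 left out 3. The summed level of the list was 3443 and 3195 CPM in the libraries labelled mutant and 3129 to 5223 CPM in the controls, most of it from the 1 marker whose log2 fold change was above 0. Adding Xist as a covariate left 1 atrial marker called, and limma-voom called 2. The part of atrial cells in the value of Fgf12 was not tested.

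Neurons and neural crest glia express several of the 8 genes. Of 21 markers of these cells, 15 were tested and none was called, with 4 log2 fold changes above 0, 11 below and a median of -0.23, and Chrna3 and Snap25 were among the 6 with too few counts. The summed level was 143 and 220 CPM in the libraries labelled mutant and 132 to 182 CPM in the controls, most of it from Ednrb, which endothelial cells also express and whose log2 fold change was 0.41 (SE 0.25), turning to -0.14 with mutant replicate 2 left out. Gap43, the next highest, was at -0.04 (SE 0.10). With the replicate block 1 marker of this list was called. Mesenchyme and fibroblast markers had 7 of 11 called lower, Postn, Dpt, Twist1 and Col1a1 among them, with log2 fold changes of -1.54, -3.62, -1.48 and -1.36. The median of that list was -0.99, and its summed level was 1677 and 1661 CPM in the libraries labelled mutant and 2726 to 4676 CPM in the controls. Macrophage markers had 3 of 8 called lower (C1qa, C1qc and Lyz2; list median -0.88) and epicardial markers 1 of 6 (Krt19; list median -0.61), while none of the 8 endothelial, 7 erythroid or 10 ventricular markers was called. The endothelial and erythroid lists gave 0 calls in all 18 alternatives. Of the ventricular markers, 8 had log2 fold changes above 0 and 2 below, with a median of 0.27; with control replicate 4 left out 1 was called, with control replicate 5 left out 3, with no filter on low counts 2, by DESeq2 4 and with the replicate block 5. With mutant replicate 1 left out 1 mesenchymal and 3 macrophage markers were called, and with mutant replicate 2 left out 0 of the mesenchymal, macrophage or epicardial ones. Macrophage markers also gave 0 calls with control replicate 1 or 2 left out, and 1 with control replicate 3 left out. The fit with Xist as a covariate called 3 mesenchymal, 1 epicardial and 0 macrophage markers, and limma-voom 5, 1 and 2. Whether any of these cell types carries Fgf12, and its part in the value, was not tested.

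The 3 genes most like Fgf12 in log2 CPM across the 7 libraries were Rcn3, Ifltd1 and the atrial gene Sln. Their Pearson r was 0.993, 0.991 and 0.990. All 3 were called lower, at log2 fold changes of -0.64, -1.65 and -4.21. They came from 10498 tested genes that averaged at least 5 CPM over the 7 libraries. Ifltd1 and Sln reached that level through the controls, at 9.40 and 9.65 CPM there. In the libraries labelled mutant they averaged 3.01 and 0.530 CPM. For Fgf13 the 3 most alike genes were Naa50 (0.991), Sgms1 (0.989) and Mtpn (0.988). None of these was called, with log2 fold changes of 0.19, 0.17 and 0.17. These correlations come from 7 libraries that share their depth and the group difference, and they are a description only. Over the same libraries the r was -0.52 between Fgf12 and Fgf13, 0.70 between Scn10a and Fgf12 and -0.78 between Scn10a and Scn3b.

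Control replicate 5 was the highest control for Scn10a, Scn4b, Fgf12 and Fgf13, while over all genes tested it was the highest control for 27.6%. Without it the log2 fold change was -0.87 for Scn10a, -2.21 for Fgf12 and 0.39 for Fgf13, with adjusted p of 0.184, 0.0297 and 0.121 (edgeR quasi-likelihood test).

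**Figure D4:**
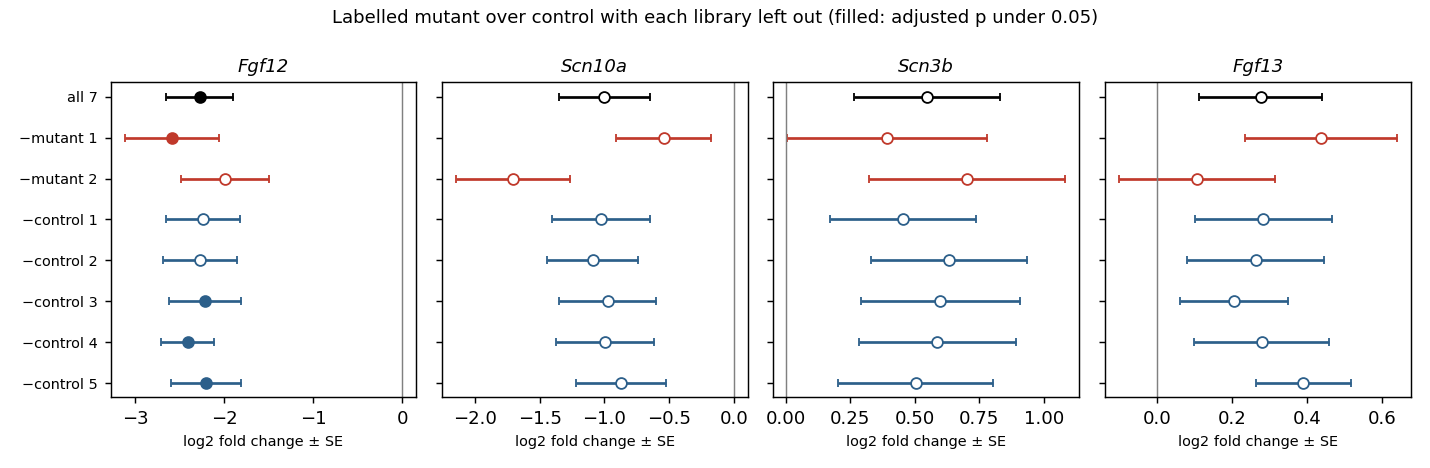
Log2 fold change ± SE of the libraries labelled mutant over the controls with all 7 libraries and with each library left out, for Fgf12, Scn10a, Scn3b and Fgf13; a filled point marks an adjusted p under 0.05. No gene shown changes its sign, and Fgf12 has an open point where mutant replicate 2 or control replicate 1 or 2 is left out.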

How the data were processed

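Per the labels' protocols, TRIzol and a column kit were used for RNA, and a TruSeq kit that does not mark strand for single-end libraries. The deposited table holds unnormalized read counts per gene symbol for 7 libraries. The submitters' processing notes name the build mm10 and featureCounts, limma 3.30.13, edgeR 3.16.5, TopHat2 2.1.1 and R 3.3.2. The roles of these tools, the strand setting and the handling of multiply matching reads were not found in those notes. The authors' deposited comparison table gives log2 fold changes (the base was inferred from the values), p-values and false discovery rates; it names no test, per the file headers.

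The test used edgeR 4.0.16 in R 4.3.3: filterByExpr (minimum count 10, minimum total 15), TMM, robust glmQLFit, and glmQLFTest on genotype with no other term. The p-values were adjusted by Benjamini-Hochberg over the 14691 genes that passed the filter, and a gene is called at an adjusted p under 0.05. SE is the size of the log2 fold change over the square root of F, and intervals are 95%. Genes named from a list are its called genes (up to 4, by adjusted p) and otherwise the 2 highest in CPM. Values of some genes so named are not reported here. Gene positions and exon lengths came from GENCODE M21. The members and lists were chosen with earlier results of these data known. The procedure was tested on simulated data. Alternatives were DESeq2 1.42.0, limma-voom 3.58.1, other scalings and filters, each library left out, the replicate block and Xist as a covariate; a fit of the same 4 libraries without the block was chosen after seeing the data. Figures used matplotlib 3.10.9.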

Additional observations from a re-analysis of the deposited data

Results flagged for a closer look

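Postn in control replicate 1 stood apart from the other controls: it was at 633 CPM there, and the next control was at 415 CPM. The gap took a share of 0.722 of the control range, above Dixon's critical value of 0.71 for 5 samples. It was the 1 of 44 genes checked in this way that passed, and chance alone passes about 1 in 20 such groups. None of the 8 sodium channel and FGF homologous factor genes did.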

How the results depend on the processing

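Of the 8 genes 1 was called in 12 of 18 alternatives and 0 in the others: limma-voom, Xist as a covariate, without control replicate 5 and mutant replicate 2 together, and 3 of the 7 fits with 1 library left out (range 0 to 1). The number of genes called, 200, was 12 to 275 with 1 library left out (12 without mutant replicate 2, 72 without control replicate 2, 78 without control replicate 1), 786 by DESeq2, 119 by limma-voom, 60 with Xist as a covariate and 52 without control replicate 5 and mutant replicate 2. Whether the replicate numbers pair the samples is not known. Deviations of same-numbered libraries correlated at 0.078 and 0.012. These values cannot decide it, since the deviations of the 2 libraries labelled mutant mirror each other. With the replicate block, in the 4 libraries numbered 1 and 2, 632 genes were called and 1 of the 8, against 184 and 1 without the block; the cause was not tested.

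Signs turned for some genes that were not called. With the block the log2 fold change was 0.024 for Fgf11, -0.18 for Fgf14, -0.094 for Scn7a, -0.15 for Fgf9 and 0.013 for Gap43, and without the block in the same libraries 0.020 for Fgf11, -0.13 for Fgf14, -0.069 for Scn7a, -0.15 for Fgf9 and 0.015 for Gap43. Fgf14 was at -0.042 by limma-voom. With 1 library, or control replicate 5 and mutant replicate 2, left out, the ranges were -0.26 to 0.044 for Fgf11, -0.54 to 0.38 for Fgf14, -0.29 to 0.42 for Scn7a, -0.073 to 0.0068 for Actc1, -0.14 to 0.81 for Ednrb, -0.14 to 0.060 for Gap43, -0.0019 to 0.37 for Eng and -0.44 to 0.28 for Cdh5. Scn4a and Scn4b entered 13 of the 18 alternatives, with too few counts in the rest, and DESeq2 gave Scn4a no adjusted p. With 2 libraries labelled mutant and 37 counts or fewer in each for 7 of the 8 genes, the counts limit the precision. The spread between controls limits it too, since they differed by more than counting noise for Scn10a, Scn4a, Scn4b, Fgf11, Fgf12 and Fgf13. How much of each interval comes from the counts and how much from this spread was not tested.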
